A study of Mus musculus with 4 samples.

Results

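The genes described here are 33 genes of glucose breakdown and of the response to low oxygen, set by name: 22 of them cover glucose transporters, the steps of glycolysis and the handling of lactate and pyruvate, and 11 are hypoxia-inducible factors (HIF), their hydroxylases and other HIF target genes. All 33 were found by symbol among the 24421 gene rows of the count table. RNA was measured by poly(A) RNA-seq in superficial-zone articular cartilage, the surface layer of the joint cartilage, cut from the medial femoral condyle of the knee. The 2 C57BL/6J mice, M04 and M05, each gave 2 libraries, and tissue was taken 8 weeks after surgery. One knee had destabilization of the medial meniscus (DMM), an operation that loosens the meniscus and leads to osteoarthritis, and the other knee had sham surgery. Each group thus holds 2 libraries, DMM of M04 and M05 against sham of M04 and M05, and both knees of a mouse share its genotype, housing and age, the last of which the labels do not give. Genotype is wild type for each mouse in the sample labels, but the design text of the series marks M05 as knockout without naming a gene, so a difference between M05 and M04 is one between 2 animals. For the sham samples the description field mentions a DMM knee, and the groups used here follow the titles and the treatment field instead.

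Glycolysis turns glucose into pyruvate, and lactate dehydrogenase turns pyruvate into lactate so that the pathway can run without oxygen. Cartilage has no blood vessels of its own, and its chondrocytes make much of their ATP by glycolysis in low oxygen. HIF factors are degraded in oxygen after prolyl hydroxylases mark them, and when stable they bind short DNA motifs near many genes of glycolysis. Much of HIF control thus acts on protein, which these mRNA levels do not show.

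The total count per library was 12712425 to 19336628. Haemoglobin genes took 25.7% to 35.3% of the counts, and the summed level of the 15 cartilage markers was 5600 CPM (counts scaled to the TMM-adjusted library total) in the M04 sham library, 6517 in M04 DMM, 1511 in M05 sham and 4874 in M05 DMM. The libraries thus held cartilage markers, but also RNA of blood and marrow: the listed neutrophil markers summed to 42729 to 70048 CPM and the erythroid ones to 187531 to 319743 CPM. No listed marker of cartilage, muscle, endothelium or the other cell types was at 0 in every library. At an adjusted p under 0.05 in edgeR's quasi-likelihood test, 8 of the 15 cartilage markers were higher with DMM, beside 0.633% of all genes. By the same test, 10 of 15 were lower in M05 than in M04, beside 1.64% of all genes. All 15 had a positive log2 fold change with DMM and a negative log2 difference of M05 against M04. In bulk tissue, fewer cells of a type and less RNA per cell cannot be told apart, and glycolytic genes are used by every cell type named here.

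HIF binds the core motifs ACGTG and GCGTG, which were searched on both strands of the RefSeq promoter windows (build GRCm38.p6), from 250 bases before to 50 after a start. The files use another build, so genes were matched by symbol: 30 of the 33 genes had an entry, with 46 windows. ACGTG was in 23 of the 46 windows (50%) against 19.6% of all 32851 windows, and GCGTG was in 24 (52.2%) against 32.4%. Either motif was in 35 windows (76.1%) against 43.8% of all windows. Windows of nearby starts overlap, as for Eno1, Aldoa and Pfkm, so 1 match can be counted in more than 1 window. The genes also include HIF targets by choice. A match at CACGTG reads as ACGTG on both strands and was counted on both, and a match is a description of letters, not a bound site. The 3 windows below were picked with the results known. Ankrd37 and Car9 had the 2 largest differences between DMM and sham among the genes tested, in opposite directions. Both rest on 7 to 45 counts per library, and neither passed at an adjusted p under 0.05 in edgeR's quasi-likelihood test. Ldha is an abundant enzyme gene with almost no difference. Capitals mark every ACGTG or GCGTG on the printed strand or, as CACGT or CACGC, on the other strand.
Ankrd37, chr8:45999801-46000100, minus strand: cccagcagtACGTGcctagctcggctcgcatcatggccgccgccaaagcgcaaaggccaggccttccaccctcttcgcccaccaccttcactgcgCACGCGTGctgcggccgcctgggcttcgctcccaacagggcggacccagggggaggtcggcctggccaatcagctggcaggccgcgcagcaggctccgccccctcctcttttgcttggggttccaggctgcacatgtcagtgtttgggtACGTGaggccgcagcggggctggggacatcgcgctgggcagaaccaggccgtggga
Car9, chr4:43506776-43507075, plus strand: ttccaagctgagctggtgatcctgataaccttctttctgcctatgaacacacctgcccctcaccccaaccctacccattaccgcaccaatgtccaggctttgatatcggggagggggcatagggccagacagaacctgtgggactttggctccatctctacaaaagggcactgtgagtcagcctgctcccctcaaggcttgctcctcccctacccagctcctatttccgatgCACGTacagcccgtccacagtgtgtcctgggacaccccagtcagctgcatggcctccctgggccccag
Ldha, chr7:46845554-46845853, plus strand: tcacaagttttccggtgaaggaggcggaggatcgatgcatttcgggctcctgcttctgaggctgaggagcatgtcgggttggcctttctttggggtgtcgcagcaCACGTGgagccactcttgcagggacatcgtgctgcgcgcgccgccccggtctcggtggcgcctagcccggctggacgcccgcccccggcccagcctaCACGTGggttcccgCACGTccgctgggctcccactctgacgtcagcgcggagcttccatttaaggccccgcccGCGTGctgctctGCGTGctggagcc
The Ankrd37 window held 2 matches of ACGTG and 2 of GCGTG, the Car9 window 1 of ACGTG and 0 of GCGTG, and the printed Ldha window 5 of ACGTG and 2 of GCGTG. Ldha has another window in the table, not printed, with 0 of ACGTG and 2 of GCGTG.

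The enzymes from aldolase onward carried most of the RNA. By deposited FPKM, which corrects for transcript length, Gapdh, the dehydrogenase step, was highest, at 1478 in M04 sham, 1361 in M04 DMM, 1536 in M05 sham and 1674 in M05 DMM. Its mean of 1512 ranked 88 among all genes. Aldoa (aldolase) followed at a mean FPKM of 653, above Pkm in every library, then Pkm (pyruvate kinase) at 490, Eno1 (enolase) at 371, Ldha at 369 and Gpi1 (glucose phosphate isomerase) at 338. The libraries of Eno1 ran from 338 to 417 FPKM and those of Ldha from 339 to 406, so these neighbours overlapped, as did Gpi1 (307 to 374), whereas Gapdh lay above all of them in every library. Tpi1, Pgk1 and Pgam1, which stand between aldolase and enolase, had means of 198, 185 and 112 FPKM. Of the genes that bring glucose in and trap it, Slc2a3 (a glucose transporter) was at a mean of 27.7 and Hk1 (hexokinase) at 57.5. The HIF genes were far lower, with means of 5.34 for Hif1a and 4.37 for Epas1, and Eno2, the neuronal enolase, had a mean of 0.110. Together the 33 genes took 0.746% of the counts in M04 sham (95% Wilson interval 0.7414 to 0.7508), 0.769% in M04 DMM (0.7639 to 0.7733), 0.654% in M05 sham (0.6501 to 0.6572) and 0.774% in M05 DMM (0.7687 to 0.7784). M05 sham was the lowest, and it also had the most haemoglobin. Taken out of the total, haemoglobin left shares of 1.07% and 1.04% for M04 sham and DMM and 1.01% and 1.1% for M05. The intervals cover counting error only.

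**Figure D1:**
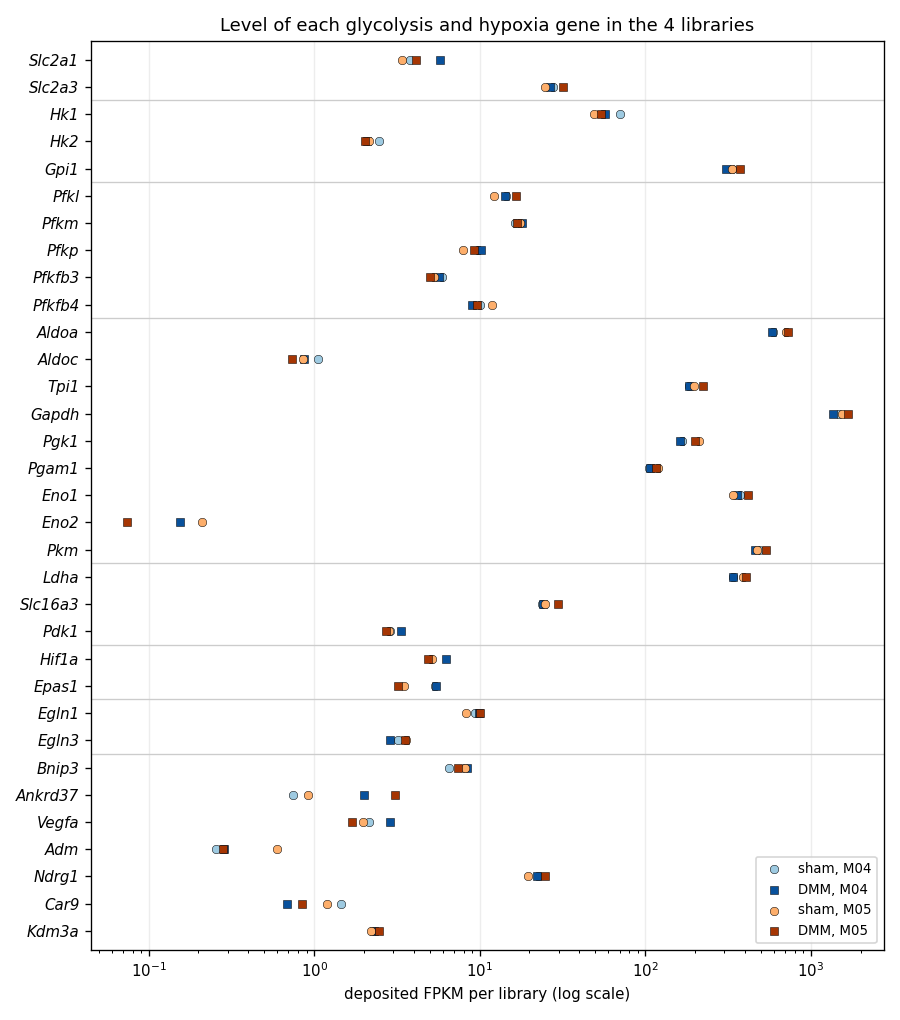
Deposited FPKM of each of the 33 genes (log axis) in the 4 libraries, circles for sham and squares for DMM, blue for M04 and orange for M05. Gapdh leads at 1361 to 1674 FPKM and the 4 libraries of most genes lie close together; the M04 sham value of Eno2 is 0 and cannot be drawn on this axis.

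Did DMM surgery change these genes? Of the 31 genes with enough counts to test, 0 passed at an adjusted p under 0.05 in edgeR's quasi-likelihood test, in either direction, where 0.649% of all 13103 genes tested passed (83 or 0.633% higher and 2 or 0.0153% lower with DMM). DESeq2 also called 0 of the 31, beside 0.0992% of all genes, and edgeR without the mouse as a block called 0 of the 31 and 0 of all genes. At an unadjusted p under 0.05 there was 1 of the 31, Ankrd37, against 5.2% of all genes. The median log2 fold change of the 31 was 0.05 beside -0.01 for all genes, with 22 positive and 9 negative. Eno2 (counts of 0 and 6 in M04 sham and DMM, 8 and 2 in M05) and Adm, the adrenomedullin gene (4 and 5, then 12 and 4), fell below the count filter. Both DMM libraries lay above both sham libraries for 5 of the 31 (Slc2a1, Pfkl, Egln1, Ankrd37, Kdm3a) and below them for 3 (Hk2, Pfkfb4, Car9), 8 in all, where 25.6% of all genes had groups that did not overlap (13.2% above and 12.4% below). Taken mouse by mouse, 27 of the 31 had a log2 ratio of DMM over sham smaller than 0.5 in size in both mice, beside 65.5% of all genes. The ratio had the same sign in both mice for 16 of the 31, beside 47.1% of all genes.

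**Figure D2:**
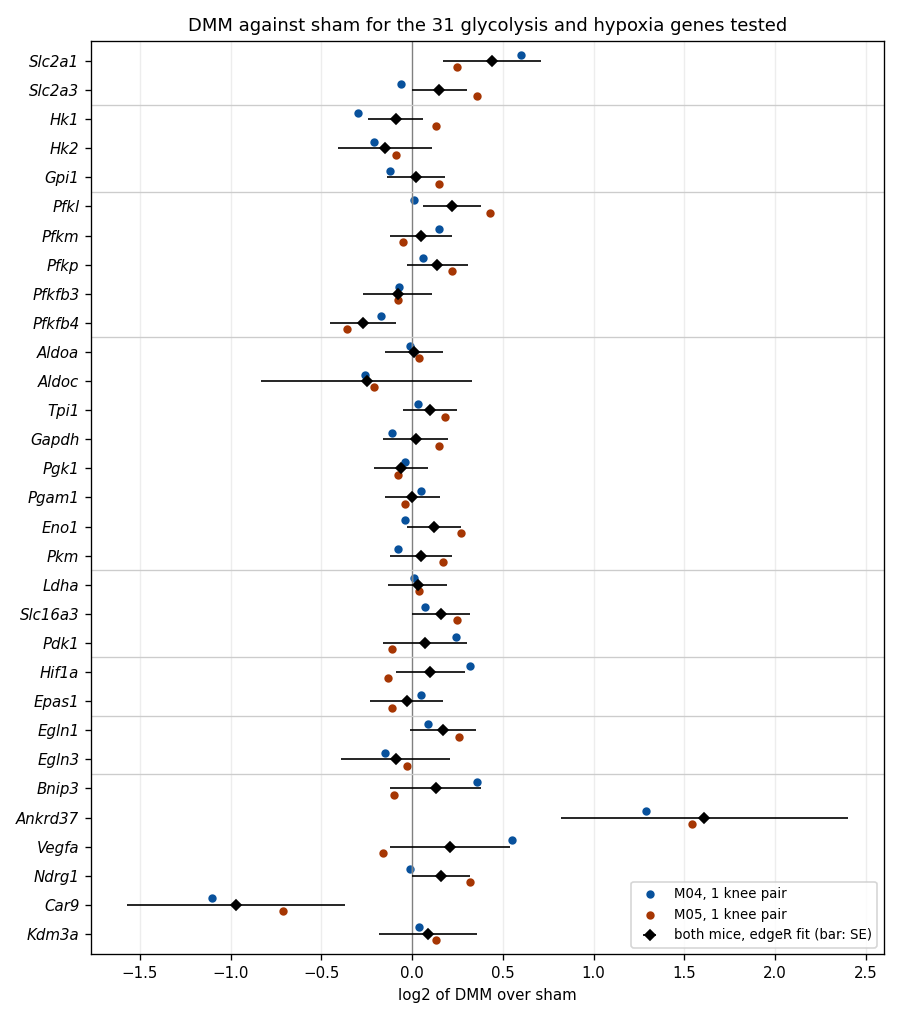
Log2 of DMM over sham for the 31 genes tested, grouped by role: diamonds are the edgeR estimate from both mice with its standard error as a bar, blue and orange points the ratio in M04 and in M05 alone. Ankrd37 (1.61) and Car9 (-0.97) lie farthest from 0, with the widest bars beside that of Aldoc, and the others lie between -0.27 and 0.44.

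The 11 genes whose mean reached 100 CPM had log2 fold changes that ran from -0.09 to 0.15, with standard errors of 0.15 to 0.18. Their ratios ran from -0.30 to 0.05 in M04 and from -0.08 to 0.36 in M05. Gapdh had 2023 CPM in M04 sham, 1872 in M04 DMM, 2095 in M05 sham and 2332 in M05 DMM. DMM was thus the lower knee in M04 and the higher one in M05, and the log2 fold change was 0.02 (95% interval -0.33 to 0.38). Ldha had 482, 486, 558 and 573 CPM in the same order. The values lay together by mouse rather than by surgery, and the log2 fold change was 0.03 (-0.29 to 0.34). Aldoa had 771, 766, 934 and 958 CPM, with the same pattern and a log2 fold change of 0.01 (-0.31 to 0.34). The intervals of these 3 enzymes all hold 0, and the spread behind them comes from the trend across genes, since 1 residual degree of freedom was left. Pkm (0.05), Tpi1 (0.10), Pgam1 (0.0015), Eno1 (0.12) and Pgk1 (-0.06) had log2 fold changes of like size. Aldoc, the brain-type aldolase, had 2.59, 2.14, 2.11 and 1.81 CPM, at 22 to 36 counts per library, and a log2 fold change of -0.25 with a standard error of 0.58. The Eno1 row shares reads with its near-identical copy Eno1b, which held 5888, 6375, 6918 and 6205 counts in the count table but 0.299, 0.324, 16.6 and 0.744 FPKM in the FPKM table, so the 2 tables split these reads in different ways. Summed with Eno1b, the log2 fold change was 0.13 (SE 0.16), a sum chosen after seeing the data.

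Among the glucose transporters, Slc2a1 (GLUT1, a HIF target) had 8.88 CPM in M04 sham, 13.6 in M04 DMM, 8.03 in M05 sham and 9.6 in M05 DMM. DMM was the higher knee in both mice, with the lead of M04 DMM the larger, and the log2 fold change of 0.44 (SE 0.27) had an adjusted p of 1 in edgeR's quasi-likelihood test. Slc2a3 (GLUT3) had 104, 99.5, 92.6 and 119 CPM in the same order, a log2 fold change of 0.15, and groups that overlapped.

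At the hexose phosphate steps, Gpi1 had 894, 825, 899 and 996 CPM, again lower in the DMM knee of M04 and higher in that of M05. Hk1 had 279 CPM in M04 sham against 226, 194 and 213 in M04 DMM, M05 sham and M05 DMM. M04 sham was the highest library, and both M04 libraries lay above both M05 libraries. The log2 fold change of Hk1, DMM against sham, was -0.09 (SE 0.15). Hk2, the insulin-sensitive and HIF-responsive hexokinase, was low at 12.9, 11.1, 11.4 and 10.7 CPM. Both its DMM values lay just under both sham values, with a log2 fold change of -0.15 (SE 0.26).

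Phosphofructokinase commits sugar to glycolysis, and the bifunctional Pfkfb enzymes set the level of its activator. Pfkm, the muscle-type subunit, had 42.8, 47.6, 46.2 and 44.6 CPM, nearly level, and Pfkl, the liver-type subunit, had 50.1, 50.3, 42.9 and 57.8. The Pfkl groups did not overlap, with a DMM over sham ratio of 0.01 in M04 and 0.43 in M05, and its log2 fold change was 0.22 (SE 0.16). Pfkp, the platelet-type subunit, had a log2 fold change of 0.14 and Pfkfb3 of -0.08. Pfkfb4 had 32.2, 28.6, 39 and 30.3 CPM, lower in the DMM knee of both mice, with a log2 fold change of -0.27 (95% interval -0.62 to 0.08).

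For lactate and pyruvate, Slc16a3 (MCT4, which exports lactate) had 53.2 CPM in M04 sham, 55.8 in M04 DMM, 56.3 in M05 sham and 67.1 in M05 DMM. Its groups overlapped, and its log2 fold change was 0.16 (SE 0.16). Pdk1, a kinase that holds back the entry of pyruvate into the citric acid cycle, had 14.1, 16.8, 14.4 and 13.4 CPM and a log2 fold change of 0.07. It was higher with DMM in M04 and lower in M05.

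Of the 31 genes, 2 had a ratio of at least 0.5 in size and the same sign in both mice. That share is near the 4.75% of all genes that did so. The 2 genes are HIF targets with few counts, and they changed in opposite directions. Ankrd37, a small ankyrin-repeat protein gene and a HIF target, had 7 counts in M04 sham, 22.5 in M04 DMM, 11 in M05 sham and 26 in M05 DMM. That is 0.518, 1.47, 0.645 and 2.13 CPM, with both DMM libraries above both sham ones. The ratios were 1.29 in M04 and 1.54 in M05, and the log2 fold change was 1.61 (SE 0.79, 95% interval 0.06 to 3.16) with an adjusted p of 0.911 in edgeR's quasi-likelihood test. Car9, a cell-surface carbonic anhydrase and another HIF target, went the other way, with 37 counts in M04 sham, 18 in M04 DMM, 45 in M05 sham and 19 in M05 DMM. Its CPM of 2.74, 1.2, 2.64 and 1.56 placed both DMM libraries below both sham ones, at a log2 fold change of -0.97 (SE 0.60, 95% interval -2.15 to 0.21) and an adjusted p of 1 by the same edgeR test. Both genes rest on 7 to 45 counts per library. At these low counts, neither difference passed the correction over all genes.

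The remaining HIF genes stayed within a log2 fold change of 0.21. Vegfa, the vessel growth factor, had 6.14, 9.09, 6.45 and 5.74 CPM, a ratio of 0.55 for M04 and of -0.16 for M05. Only its M04 DMM library was high, and the log2 fold change was 0.21 (SE 0.33). Ndrg1, a stress-response gene and the most abundant of the other HIF targets, had 60.2, 59.7, 53 and 66.3 CPM and a log2 fold change of 0.16. Bnip3, which promotes mitophagy, had 0.13 and Kdm3a, a histone demethylase, 0.09. The prolyl hydroxylase gene Egln1 (PHD2), which marks HIF for breakdown, had 30.9, 32.9, 27.5 and 32.9 CPM, with DMM higher in both mice by ratios of 0.09 and 0.26. Egln3 (PHD3), itself a HIF target, had 7.85, 7.08, 8.91 and 8.7 CPM and a log2 fold change of -0.09. Hif1a had 23.3, 29.1, 23.9 and 21.9 CPM, higher with DMM in M04 and lower in M05, and its log2 fold change was 0.10 (SE 0.19).

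**Figure D3:**
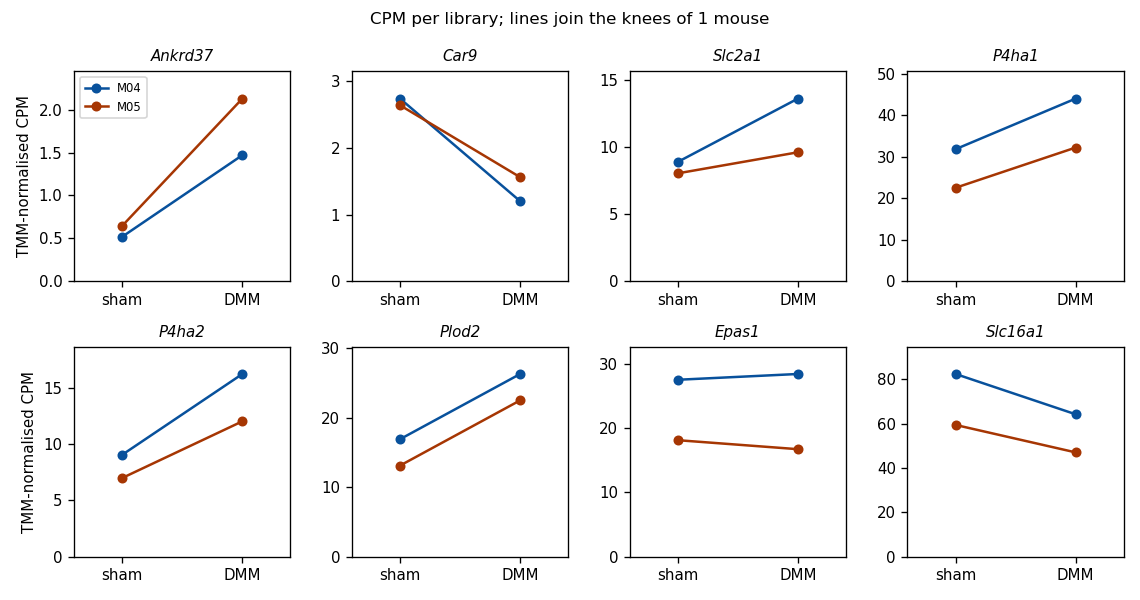
TMM-normalised CPM (linear axes from 0) in the sham and DMM knee of each mouse, joined by a line, for 4 of the 33 genes (Ankrd37, Car9, Slc2a1, Epas1) and 4 further pathway genes. The lines of both mice run the same way for each gene but Epas1, whose mice stand apart at 27.5 to 28.4 CPM in M04 and 16.7 to 18.1 in M05.

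In 6 further lists of the same pathways (95 genes, of which 88 were tested), 0 genes passed at an adjusted p under 0.05 for DMM against sham in edgeR's quasi-likelihood test, beside 0.649% of all genes, and 8 had an unadjusted p under 0.05, beside 5.2% of all genes. Of these 8, 6 were among the 25 further HIF targets: P4ha1, P4ha2, Plod1, Plod2, Ak4 and Stc2. The 25 had a median log2 fold change of 0.06, with 16 positive and 9 negative. The 6 were positive, and the first 4 encode the prolyl and lysyl hydroxylases that modify collagen chains. Plod2 had 16.9 CPM in M04 sham, 26.3 in M04 DMM, 13.1 in M05 sham and 22.5 in M05 DMM. DMM was higher in both mice, and its log2 fold change of 0.71 (SE 0.21) had an edgeR adjusted p of 0.0834, the smallest of the 88. P4ha2 had 9.03, 16.2, 6.97 and 12 CPM, also higher with DMM in both mice, with a log2 fold change of 0.81 (SE 0.26, edgeR adjusted p 0.211). P4ha1 had 31.8, 44, 22.5 and 32.2 CPM and a log2 fold change of 0.49 (SE 0.18, edgeR adjusted p 0.364). The cartilage markers stood higher beside them, at a median log2 fold change of 0.97 with all 15 positive. Their median ratio was 0.26 in M04 and 1.57 in M05, and their part in the differences above was not tested. Ak4, a mitochondrial adenylate kinase singled out after its values were seen, had 1.7, 3.61, 1.05 and 3.77 CPM, at 18 to 54 counts per library.

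On the supply side, Slc16a1 (MCT1, a lactate importer and exporter) had 82.4 CPM in M04 sham, 64.2 in M04 DMM, 59.4 in M05 sham and 47 in M05 DMM. The DMM knee was lower in both mice by like ratios of -0.36 and -0.34, and the log2 fold change was -0.35 (SE 0.16, edgeR adjusted p 0.794). Slc2a6 and Slc2a4, 2 other sugar transporters, had log2 fold changes of -0.35 and -0.34. The 7 pentose phosphate genes, which make NADPH from glucose, ran from -0.31 (Rpe) to 0.05 (G6pdx), with Pgls at 0.04. The glycogen list (11 tested) ran from -0.23 (Pygm) to 0.23 (Pgm1), with Gyg at -0.20. Of the 12 genes for pyruvate entry into mitochondria, 9 were negative, where 6833 of all 13103 genes were, and the list ran from -0.36 (Pdhx) to 0.71 (Pdp2, at 16 to 30 counts per library), with Mpc1 at -0.31, Dld at -0.24, Dlat at -0.16 and Mpc2 at -0.11. Among HIF subunits and turnover genes, Cul2, of the ligase complex that degrades HIF, had a log2 fold change of -0.61 (12.3, 9.75, 12.9 and 6.89 CPM, edgeR adjusted p 0.738), Egln2 had -0.24 and Cited2 had 0.17. These lists, like the 33 genes, hold no gene past the threshold for surgery, and the median over the 88 was -0.02.

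The isoenzyme make-up of each step, as a share of its summed FPKM, was led by the same gene in every library at most steps. Aldoa made up 99.5% of aldolase in each of the 4 libraries, Ldha 95.8% to 96.6% of lactate dehydrogenase, and Pkm 95.9% to 96.6% of pyruvate kinase against the red-cell and liver gene Pklr. Hexokinase was shared between Hk1 (54.9% in M04 sham, 52.6% in M04 DMM, 46.4% in M05 sham and 45.2% in M05 DMM) and Hk3, a hexokinase of myeloid cells (43.2%, 45.5%, 51.6% and 53.1%). Hk1 led in M04 and Hk3 in M05, where the summed neutrophil markers were also higher (70048 and 61838 CPM against 43163 and 42729), and the part of neutrophils in this was not tested. Hk2 made up 1.7% to 2.03%. Pfkm, Pfkl and Pfkp shared phosphofructokinase at 39.4% to 46.5%, 32.5% to 38.9% and 21% to 24.2%.

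**Figure D4:**
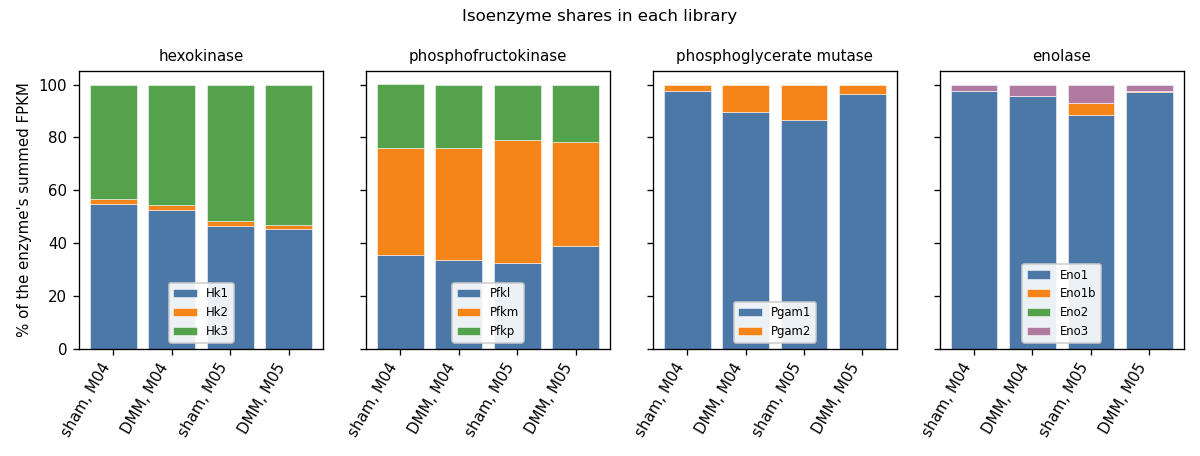
Share of each isoenzyme in the summed FPKM of its enzyme, in percent, for 4 steps in the 4 libraries (stacked bars from 0). Hk1 and Hk3 split hexokinase, and the muscle-type Pgam2 and Eno3 take their largest shares, 13.3% and 6.91%, in M05 sham.

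The muscle-type isoenzymes ran opposite ways in the 2 mice. Pgam2, the muscle phosphoglycerate mutase, made up 2.47% of mutase FPKM in M04 sham, 10.4% in M04 DMM, 13.3% in M05 sham and 3.6% in M05 DMM, and Eno3, the muscle enolase, 2.36%, 4.14%, 6.91% and 2.39% of enolase. These genes were singled out after their values were seen. In CPM, Pgam2 had 3.11, 9.35, 13.4 and 3.36 in the same order, so M04 DMM and M05 sham were high. The DMM over sham ratio was 1.55 in M04 and -1.95 in M05, and the difference of responses was -3.62 (SE 0.64, edgeR adjusted p 0.274). It passed in 2 of 9 alternatives, DESeq2 (adjusted p 0.00704) and edgeR with no count filter (0.00163). Eno3 had 11.5, 20, 34.3 and 13.7 CPM with ratios of 0.79 and -1.32, and its difference of responses of -2.22 (edgeR adjusted p 1) passed in 1 of 9 alternatives, with no count filter (0.0319). Pygm, the muscle glycogen phosphorylase, had ratios of 0.41 and -0.86. All 12 skeletal muscle markers likewise had a positive ratio for M04 and a negative one for M05, their summed level was 187, 488, 682 and 206 CPM, and their part in the isoenzyme values was not tested.

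**Figure D5:**
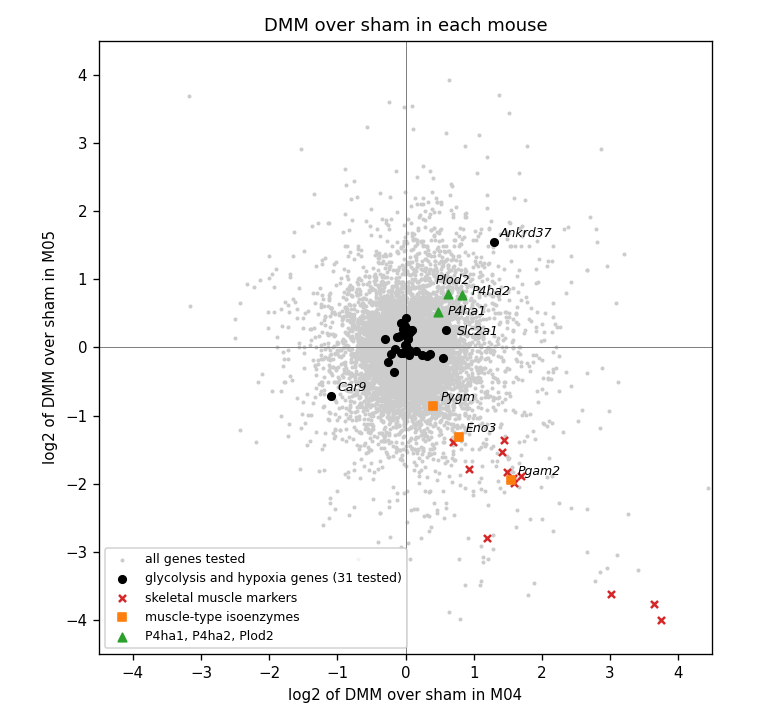
Log2 ratio of DMM over sham in M04 (x axis) against M05 (y axis), 1 point per gene, for all genes tested (grey), the 31 genes tested here (black), the skeletal muscle markers, 3 muscle-type isoenzymes, and P4ha1, P4ha2 and Plod2. The black points crowd at the centre apart from Ankrd37 (1.29 and 1.54) and Car9 (-1.10 and -0.71), and the muscle genes lie at the lower right.

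Did the 2 mice respond differently? For the 31 genes, 0 passed in the test of the difference between the DMM response of M05 and that of M04 (edgeR's quasi-likelihood test, adjusted p under 0.05), beside 0.0153% of all genes. At an unadjusted p under 0.05 there were also 0 of the 31, beside 2.34% of all genes, and DESeq2 called 0. In this test the effects of mouse and surgery count as spread. No tested gene of the 31 had ratios of opposite sign with a size of at least 0.5 in both mice, beside 4.5% of all genes. Of the tested genes whose ratios differed in sign, Vegfa had the widest gap, the ratios given above.

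Between the animals, 1 of the 31 genes passed at an adjusted p under 0.05, Epas1, beside 2.6% of all genes (0.962% higher and 1.64% lower in M05). Epas1, which encodes HIF-2alpha, a HIF factor known from endothelium, had 27.5 CPM in M04 sham, 28.4 in M04 DMM, 18.1 in M05 sham and 16.7 in M05 DMM. Both M05 libraries were below both M04 libraries, with a log2 difference of -0.68 (SE 0.20, edgeR adjusted p 0.0267), while its difference between DMM and sham was -0.03 (SE 0.20). Of 13 alternatives with an adjusted p for it, 4 kept the call. It was lost in edgeR without the surgery term (adjusted p 0.128) and with DESeq2's size factors (0.0557). Leaving out haemoglobin rows (0.0866) and limma on FPKM (0.556 and 0.545) lost it too. So did the fits without any 1 library, but they also drop the surgery term. The missing library and the missing term thus cannot be told apart there for Epas1. DESeq2 gave no adjusted p for it, and called 0 of the 11 of the 31 genes that had one, beside 4.31% of all genes with one; without the surgery term edgeR called 0 of all genes. The log2 difference stayed between -0.74 and -0.55. Of the 7 endothelial markers, 2 were lower in M05 at an adjusted p under 0.05 in the same edgeR test, beside 1.64% of all genes. These were Cdh5 (22.3 and 22.9 CPM in M04, 12.2 and 10.5 in M05) and Kdr (17.3 and 15.6, then 9.79 and 7.63). Over the 7 markers the log2 difference ran from -0.99 to 0.29, with 6 negative and 1 positive. The 7 summed to 328 and 303 CPM in M04 and 245 and 286 in M05. Cartilage markers were also lower in M05, 10 of 15 past the threshold, with log2 differences of -1.50 to -0.49 over the 15. The part of either list in the Epas1 value was not tested.

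Unadjusted, 3 of the 31 genes had a p under 0.05 between the mice, Epas1, Hk1 and Pgk1, beside 14.3% of all genes. Pgk1 (phosphoglycerate kinase) had 271 and 263 CPM in M04 and 340 and 322 in M05, a log2 difference of 0.31 (SE 0.15, edgeR adjusted p 0.325). The libraries of the mice did not overlap for 14 of the 31, with M05 above for 9 and below for 5, beside 45.3% of all genes (22.5% above and 22.7% below). Of the enzymes from aldolase to pyruvate kinase, 5 of the 8 tested had both M05 libraries above both M04 libraries, the direction that 22.5% of all genes showed. In the further lists, 4 of 88 genes passed, 2 higher and 2 lower, beside 2.6% of all genes (0.962% higher and 1.64% lower). Mpc1 and Mpc2, the subunits of the mitochondrial pyruvate carrier, were higher in M05: Mpc2 had 45.4 and 46.1 CPM in M04 and 74.8 and 63.6 in M05 (log2 difference 0.59, edgeR adjusted p 0.0167), and Mpc1 25.8 and 22.9, then 43.5 and 32 (0.62, 0.0291). Ep300, a coactivator that HIF recruits, was lower (42 and 38.4 CPM, then 24.6 and 22.8, log2 difference -0.76, edgeR adjusted p 0.00283), as was Car12, another carbonic anhydrase (8.88 and 9.02, then 2.58 and 5.74, -1.20, 0.0263). All 15 cartilage markers and 6 of the 7 endothelial ones also had negative log2 differences, and their part was not tested. Of 13 alternatives, Ep300 kept its call in 7, Mpc2 in 6, and Mpc1 and Car12 in 5 each. Each of the 4 lost it without M04 sham, without M04 DMM and without M05 sham. These fits also hold no surgery term, so the missing library and the missing term cannot be told apart.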

How the data were processed

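Per the labels' protocols, poly(A) RNA was taken after DNase treatment and read from 1 end over 100 bases on an Illumina HiSeq, and the submitters' processing notes name the build GRCm39 (mm39). The aligner, counter, annotation and strandedness were not given in the sources used here, so reads of overlapping genes cannot be told apart. The deposited table holds estimated counts per gene, with 9.213% to 10.876% of values not whole, each library in 2 equal columns of which 1 was used. The deposited FPKM values served for levels between genes and, as log2 of FPKM plus 0.1 or 1, for alternatives with limma 3.58.1. Each group holds 1 knee of each of 2 mice, so p-values speak only for these libraries. For most genes the spread behind them was taken from the trend across genes.

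Counts were rounded and tested with edgeR 4.0.16 (quasi-likelihood, robust, TMM, filterByExpr, 13103 of 24421 genes) in R 4.3.3, with mouse and surgery as terms and Benjamini-Hochberg adjustment over all genes at 0.05. The standard error was taken as the absolute log2 fold change over the square root of F. The labels place both knees in 1 animal, hence the block, and deviations of same-mouse libraries correlated at 0.126 across genes. With 1 residual degree of freedom, 10879 genes (83%) took their spread from the trend across genes. The difference of responses was fitted as 1 contrast over the 4 libraries, and DESeq2 1.42.0 was an alternative. Ratios per mouse are log2 ratios of TMM-scaled CPM, prior count 2, with no test. The fits were also run on simulated data that had the same dispersion for all genes and no difference between the mice. That run does not cover data in which dispersion varies or the mice differ. A share has a 95% Wilson interval.

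All 33 genes are named. Values per library were given by rule for genes past a threshold, for the highest and most changed gene of each role, and for genes with a ratio of at least 0.5 in size in both mice. Other genes whose values per library are printed (such as Pdk1, Aldoa, Hk1, Vegfa and Egln3) fall outside this rule and were chosen with their values seen. Of each further list, genes past a threshold and up to 3 with the largest change (mean CPM 5 or more) were named. The genes and lists were chosen with earlier results of these data known.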

Additional observations from a re-analysis of the deposited data

How the results depend on the processing

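The counts of the 33 genes called for surgery and for the difference of responses stayed at 0 under all alternatives run. Leaving out a library was run for surgery and for the mice, and not for the difference of responses, since 1 mouse then has no response. Epas1, the 1 gene called between the mice, lost its call without the surgery term and with DESeq2's size factors. Haemoglobin rows left out and limma on either FPKM scale also gave 0 calls. DESeq2 itself called 0, and 11 of the 31 genes, Epas1 not among them, had an adjusted p there. The fits without 1 library also drop the surgery term, so the missing library and the missing term cannot be told apart in them. Leaving out the mouse term for surgery, or the surgery term for the mice, changed no other call among the 33 genes. Of the further lists, Mpc1 (0.171), Mpc2 (0.117), Ep300 (0.0975) and Car12 (0.225) lost their calls between the mice without the surgery term (edgeR adjusted p). With unscaled library totals the median ratio of the 31 genes moved from 0.006 to 0.114 in M04 and from 0.039 to 0.158 in M05, and the median of all genes moved alike, from 0.005 to 0.112 and from -0.012 to 0.105. Of the 31 genes, 12 kept the sign of their difference between DMM and sham in each of the 14 other settings that fitted them. Aldoc, Ankrd37 and Car9, among the 12, had no fit with the filter at a mean of 5 CPM. When 1 library was left out, 19 changed sign. Those fits hold no mouse term, so differences between the mice enter their values. In other settings the sign changed only for Pgam1, to -0.0012 without the block and -0.0019 with no filter. Summing Eno1 with Eno1b was chosen after seeing the data. Depth limits Ankrd37, Car9, Aldoc, Eno2 and Adm.

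Without 1 library at a time, the log2 fold changes of the genes that changed sign, DMM against sham, had these lowest and highest values, and the fits then hold only the surgery term, with the lone library of a group assumed to vary like the others: Hk1 -0.35 to 0.17, Gpi1 -0.12 to 0.16, Pfkm -0.0047 to 0.11, Pfkp -0.01 to 0.30, Pfkfb3 -0.16 to 0.0029, Aldoa -0.16 to 0.17, Tpi1 -0.04 to 0.24, Gapdh -0.14 to 0.18, Pgk1 -0.22 to 0.11, Pgam1 -0.10 to 0.10, Eno1 -0.0017 to 0.24, Pkm -0.07 to 0.16, Ldha -0.10 to 0.15, Pdk1 -0.09 to 0.23, Hif1a -0.10 to 0.30, Epas1 -0.44 to 0.32, Egln3 -0.25 to 0.06, Bnip3 -0.02 to 0.29, Vegfa -0.13 to 0.52, Slc2a4 -0.72 to 0.01, Mpc1 -0.66 to 0.08, Mpc2 -0.45 to 0.27, Pgm1 -0.0038 to 0.43, Pygm -0.65 to 0.23, G6pdx -0.13 to 0.23, Pgls -0.17 to 0.27, Ep300 -0.54 to 0.32 and Car12 -0.26 to 1.52.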
